A study of Chlamydomonas reinhardtii with 31 samples.

Results

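STA6-C2 is 1 of 3 Chlamydomonas reinhardtii strains labelled STA6 (STA6-C2 is CC-4565, STA6-C4 is CC-4566 and STA6-C6 is CC-4567). They are called rescued strains here because their STA6 transcript is near the level of CC-4349 or above it. The STA6-C2 libraries of the second library set were set against those of the other rescued strains, STA6-C4 and STA6-C6. The times were 0.5, 4 and 48 h after cells were washed and moved to medium without ammonium. That gave 3 STA6-C2 libraries and 6 of STA6-C4 and STA6-C6, 9 of the 31 samples of the series, chosen by each sample's labelled strain and time. STA6-C2 was singled out because it has the highest STA6 transcript level, and the question was what else differs in it. The same set held 3 libraries of sta6 (CC-4348), a mutant without starch, and 3 of CC-4349, labelled wild type, at the same times. Each strain was 1 line with 1 library per time, and no source used here ties the libraries to separate cultures or says how STA6 was put back, under which promoter or in how many copies. The p-values therefore measure the spread between these samples, which may be technical in part, and a difference of STA6-C2 is a difference of 1 strain from 2 others.

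STA6, Cre03.g188250, encodes the small subunit of ADP-glucose pyrophosphorylase, the enzyme that makes ADP-glucose, the glucosyl donor for starch. Starch is the main carbon store that this green alga fills in its chloroplast when nitrogen runs out, alongside oil in lipid droplets, and strains without a working small subunit make almost none. The gene IDs of the table are printed without their transcript suffix, and neither the table nor the reference used gives names for the other genes, so their roles are not stated.

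Whole reads could be recovered from the deposited values, as described under the processing, and the 9 libraries held 10072086 to 26490108 reads assigned to genes. The STA6-C2 libraries held 11079325, 10072086 and 12603469 reads at 0.5, 4 and 48 h, the lowest of the 3 strains at 0.5 and 4 h and between the others at 48 h. Across the genes tested, the rescued strains were close to each other at every time, with Pearson's r of log2(FPKM + 1) between 0.982 and 0.99 for every pair of strains. STA6-C2 differed from STA6-C4 by more than 1 (log2) in 176, 232 and 123 genes at 0.5, 4 and 48 h, and from STA6-C6 in 236, 193 and 165 genes. STA6-C4 and STA6-C6 differed from each other in 185, 166 and 209 genes. By this count STA6-C2 was the strain farthest from the other 2 at 4 h, while at 48 h STA6-C4 and STA6-C6 were the pair farthest apart.

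The STA6 transcript stood at 845, 466 and 293 FPKM in STA6-C2 at 0.5, 4 and 48 h. It stood at 312, 259 and 108 FPKM in STA6-C4, and at 339, 235 and 138 FPKM in STA6-C6. STA6-C2 was the highest strain at each time, at 2.60, 1.89 and 2.37 times the mean of the other rescued strains. In sta6 the gene was at 1.94, 1.09 and 2.55 FPKM, and in CC-4349 at 320, 276 and 98.2 FPKM. STA6-C4 and STA6-C6 thus lay near CC-4349, and STA6-C2 lay above all of them at every time. The difference between STA6-C2 and the other rescued strains fitted over the 3 times was 1.18 ± 0.11 (log2, SE), and no test is read from it, since STA6-C2 was picked for this level. Among all genes of its library, ordered by FPKM, STA6 ranked 161, 235 and 246 in STA6-C2, 307, 363 and 684 in STA6-C4, and 291, 386 and 524 in STA6-C6.

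**Figure D1:**
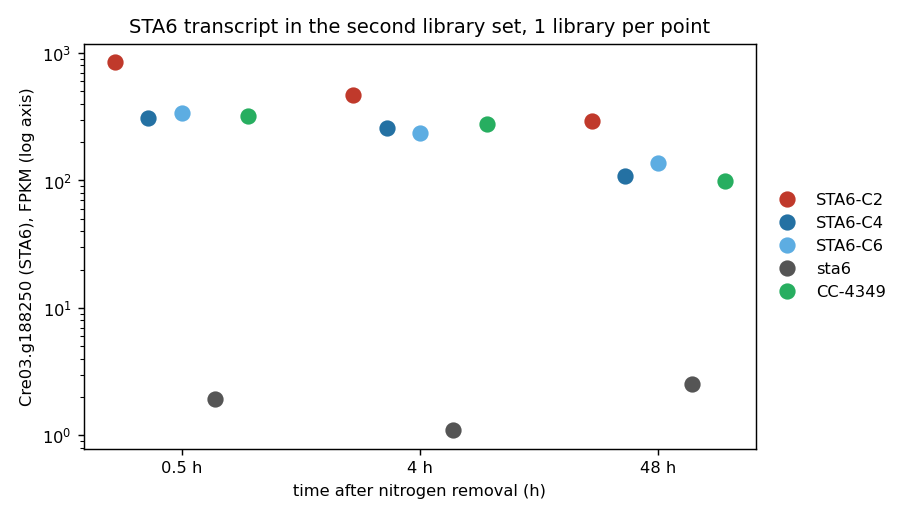
FPKM of Cre03.g188250 (STA6) on a log axis against time after nitrogen removal, with 1 point per library of the second set, coloured by strain. STA6-C2 is the highest point at each time, with 845, 466 and 293 FPKM, while STA6-C4, STA6-C6 and CC-4349 lie together between 98.2 and 339 FPKM and sta6 lies at or below 2.55 FPKM.

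The STA6 level was lower at each later time in STA6-C2, and likewise in the other strains that have the transcript. At 48 h it was at 34.6% of its 0.5 h level in STA6-C2, 34.8% in STA6-C4, 40.8% in STA6-C6 and 30.7% in CC-4349. At 4 h STA6-C2 stood at 55.2% of its 0.5 h level, against 83.1% in STA6-C4 and 69.2% in STA6-C6. The gene next to STA6 in the RefSeq gene order, Cre03.g188300, was listed at 0 in STA6-C2 at 0.5 and 48 h and at 0.0416 FPKM at 4 h, and it was at or below 0.0400 FPKM in STA6-C4, STA6-C6 and sta6. CC-4349 had 8.46, 8.80 and 8.96 FPKM of it at 0.5, 4 and 48 h. That neighbour was thus at or near 0 in sta6 and in all 3 rescued strains, STA6-C2 included. On the other side, Cre03.g188200 stood at 2.94, 5.47 and 6.79 FPKM in STA6-C2, within the 1.92 to 8.39 FPKM of the other rescued strains.

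Few genes went with the difference between the strains. Of 14527 genes tested with time as a block, 23 differed between STA6-C2 and the other rescued strains at an adjusted p under 0.05 in limma, which is 0.158% of the genes. They were 9 higher in STA6-C2 (0.062%) and 14 lower (0.0964%), and STA6 is 1 of the 9. At an unadjusted p under 0.05 there were 1274 genes, or 8.77%. STA6-C2 lay above both other strains at all 3 times in 1012 genes (6.97%) and below both in 678 (4.67%), and the 23 called genes all belong to these, each with the same direction in 6 of 6 pairs of libraries of the same time. In 17 of the 23 the STA6-C2 values did not overlap the other 6 even with the times mixed. That count was made for the called genes only, on the libraries that called them, so it describes them and adds no support. The median difference was 1.18 (log2) for the 8 called rises other than STA6 and -1.13 for the called falls. These genes were called on that difference, so the gap to the median of all genes tested, 0.01, follows from the choice.

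The number of calls rests on the strains and libraries compared. Against STA6-C6 alone, without STA6-C4, 96 genes were called, of which 16 were among the 23. Against STA6-C4 alone, without STA6-C6, 57 genes were called, of which 14 were among the 23. Without the 4 h libraries 6 genes were called, and without the 48 h libraries 10. Leaving out 1 library gave 11 genes without STA6-C2 at 4 h, 15 without STA6-C2 at 48 h, 14 without STA6-C4 at 0.5 h, 13 without STA6-C4 at 4 h and 14 without STA6-C6 at 48 h. Besides STA6, the 8 genes called without each library in turn were Cre09.g408300, Cre04.g221750, Cre01.g000350, Cre16.g650000, Cre16.g694950 and Cre03.g170000, all lower in STA6-C2, and Cre06.g301450 and Cre13.g574850, both higher. With 1 value per strain, which leaves 1 residual degree of freedom, 37 genes were called, 16 of them among the 23.

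**Figure D2:**
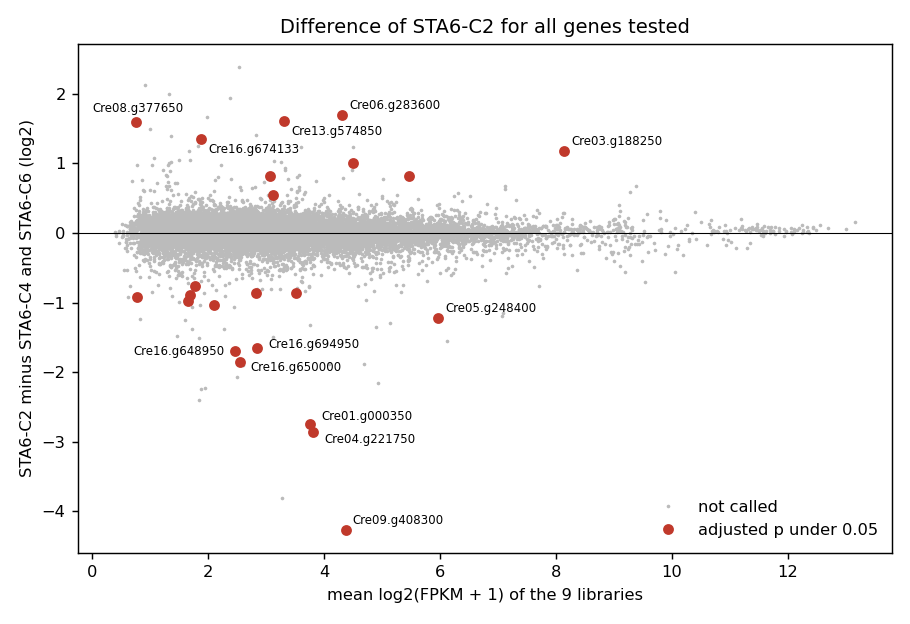
Difference of STA6-C2 from STA6-C4 and STA6-C6 (log2, vertical axis) against the mean log2(FPKM + 1) of the 9 libraries for the 14527 genes tested, with the 23 called genes as large points. Cre09.g408300 lies lowest at -4.26, and Cre03.g188250 (STA6) is the called gene with the highest level.

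The largest difference in either direction was the near loss of Cre09.g408300 in STA6-C2. This gene was at 0.810, 1.55 and 4.20 FPKM in STA6-C2 at 0.5, 4 and 48 h. It was at 49.2, 61.3 and 56.6 FPKM in STA6-C4, and at 46.6, 72.7 and 44.8 FPKM in STA6-C6. The groups were far apart at each time, with 8, 14 and 49 reads in STA6-C2 against 491 to 1103 in the others, although the STA6-C2 level was highest at 48 h. The other rescued strains averaged 59.2, 43.3 and 12.1 times the STA6-C2 level at 0.5, 4 and 48 h. The fitted difference was -4.26 ± 0.27 (log2, SE, adjusted p = 0.0015, lower in 6 of 6 pairs). In sta6 of the same set the gene was at 45.6, 40.7 and 43.4 FPKM, and in CC-4349 at 84.0, 102 and 52.6 FPKM. Of the 5 strains, STA6-C2 alone was below 5 FPKM at any of these times. In the 8 samples of sta6 in the first library set the gene ranged from 31.9 to 54.0 FPKM. It was also the single gene whose highest STA6-C2 library lay more than 10 times below the lowest of the other 6 libraries with these at 5 FPKM or more, and 0 genes did the reverse. Its 2 nearest genes on either side in the RefSeq order differed by -0.12 to 0.25 (log2, adjusted p from 0.509 to 0.913).

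Cre01.g000350 was the 1 gene called under each of the 26 alternatives tried for it. It was at 4.14, 2.57 and 2.04 FPKM in STA6-C2, at 30.4, 17.7 and 28.7 FPKM in STA6-C4, and at 25.4, 19.4 and 28.2 FPKM in STA6-C6. The STA6-C2 level was lowest at 48 h, when the mean of the others was 14 times as high. The difference was -2.74 ± 0.15 (log2, SE, adjusted p = 4.63e-05). In sta6 it was at 22.6, 11.5 and 22.0 FPKM and in CC-4349 at 31.8, 26.2 and 30.5 FPKM, so it was low in STA6-C2 and not in the other 4 strains. Its 2 nearest genes on either side differed by -0.21 to 0.09 (log2), with adjusted p of 0.526 and above.

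Cre16.g650000 had the smallest adjusted p of all genes. Its levels were 1.12, 1.22 and 2.19 FPKM in STA6-C2, against 6.2, 6.89 and 12.0 FPKM in STA6-C4 and 6.66, 6.59 and 10.9 FPKM in STA6-C6. The level was highest at 48 h in all 3 strains, and the ratio stayed near constant, the others averaging 5.74, 5.51 and 5.22 times STA6-C2 at 0.5, 4 and 48 h. The difference was -1.86 ± 0.09 (log2, SE, adjusted p = 1.25e-05). Cre16.g694950 was lower too, with 1.61, 2.26 and 3.43 FPKM in STA6-C2 and 5.96 to 13.2 FPKM in the 6 others, a difference of -1.66 ± 0.15 (adjusted p = 0.0015). The libraries of sta6 lay at 6.61 to 9.98 FPKM and those of CC-4349 at 8.64 to 9.58 FPKM for this gene, with STA6-C2 below all of them.

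Cre16.g648950 had its highest level at 0.5 h in every rescued strain and was lower in STA6-C2 at each time. It was at 6.97, 0.663 and 0.183 FPKM in STA6-C2, against 17.3, 6.29 and 2.2 FPKM in STA6-C4 and 16.1, 7.74 and 3.59 FPKM in STA6-C6. The groups overlap when times are mixed, but not within a time. In sta6 the gene was at 24.95, 12.2 and 3.5 FPKM, and in CC-4349 at 2.96, 2.15 and 0.813 FPKM. CC-4349 was thus nearer to STA6-C2 than to the other rescued strains at every time, and below STA6-C2 at 0.5 h. The difference was -1.70 ± 0.20 (log2, SE, adjusted p = 0.0161), and it missed the threshold on the recovered reads (-2.04, adjusted p = 0.21). It also missed it without STA6-C2 at 48 h (adjusted p = 0.118), without STA6-C4 at 0.5 h (0.0543) and without STA6-C4 at 4 h (0.0605).

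Smaller falls were seen in Cre14.g623400 and Cre10.g466950. Cre14.g623400 was at 6.34, 6.35 and 7.38 FPKM in STA6-C2 and at 11.4 to 15.3 FPKM in the other 6 libraries, a difference of -0.87 ± 0.11 (adjusted p = 0.0165). Cre10.g466950 was at 4.11, 3.44 and 3.80 FPKM in STA6-C2 and at 5.67 to 9.22 FPKM in the others, a difference of -0.86 ± 0.12 (adjusted p = 0.0199). Neither overlapped, and both were flat over time in STA6-C2. In CC-4349 Cre14.g623400 was at 7.0, 2.48 and 0.872 FPKM, below STA6-C2 at 4 and 48 h, and in sta6 at 13.9 to 22.4 FPKM. Cre10.g466950 was above STA6-C2 in both, at 5.75 to 7.73 FPKM in CC-4349 and 6.24 to 13.2 FPKM in sta6. With 1 library left out the adjusted p reached 0.208 for Cre14.g623400 and 0.22 for Cre10.g466950.

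For Cre04.g221750 the other rescued strains were the ones that stood apart. Cre04.g221750 was at 2.58, 2.93 and 2.78 FPKM in STA6-C2, against 19.3, 24.3 and 19.5 FPKM in STA6-C4 and 29.7, 40.5 and 29.5 FPKM in STA6-C6. It was at 1.47, 0.629 and 1.07 FPKM in sta6 and at 0.774, 1.22 and 1.11 FPKM in CC-4349. The difference of STA6-C2 from the other rescued strains was -2.86 ± 0.20 (log2, SE, adjusted p = 0.0015), and it was not called with 1 value per strain (adjusted p = 0.674). STA6-C2 lay nearer to sta6 and CC-4349 than STA6-C4 and STA6-C6 did. In the 8 samples of sta6 in the first set the gene ranged from 1.37 to 2.18 FPKM. The gene was thus low in STA6-C2, sta6 and CC-4349, and high in STA6-C4 and STA6-C6.

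Cre05.g248400 was at 26.5, 37.1 and 41.7 FPKM in STA6-C2, against 72.9, 91.0 and 94.6 FPKM in STA6-C4 and 43.0, 104 and 104 FPKM in STA6-C6. It was at 16.7, 9.60 and 17.6 FPKM in sta6 and at 28.5, 31.7 and 7.58 FPKM in CC-4349. STA6-C2 was between sta6 and the other rescued strains at every time, and at 0.5 h STA6-C6 was nearer to STA6-C2 than to STA6-C4. In the first set the gene ranged from 2.29 to 28.3 FPKM in the 8 samples of sta6 and from 12.5 to 361 FPKM, with a median of 75.8 FPKM, in the 8 of CC-4349. The difference was -1.22 ± 0.15 (adjusted p = 0.0171), and leaving out any of 6 of the 9 libraries brought the adjusted p above 0.05, to 0.231 without STA6-C2 at 4 h. The next gene in the RefSeq order, Cre05.g248450, was at 27.8, 55.3 and 27.7 FPKM in STA6-C2 and at 46.9 to 137 FPKM in the other 6 libraries, lower in 6 of 6 pairs by 1.25 (log2), but missed the threshold (adjusted p = 0.0673).

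The other 5 falls averaged under 5 FPKM over the 9 libraries and are Cre03.g170000, Cre17.g708950, Cre06.g294150, Cre15.g647000 and Cre04.g223500. Cre03.g170000 was at 0.509, 0.696 and 6.2 FPKM in STA6-C2, 2.12, 2.82 and 12.8 FPKM in STA6-C4, and 1.73, 2.42 and 15.4 FPKM in STA6-C6, a difference of -1.04 ± 0.10 (adjusted p = 0.00181). Its level at 48 h was far above that at 4 h in all 3 strains. In CC-4349 of the same set Cre03.g170000 was at 0, 0 and 0.398 FPKM, below STA6-C2 at each time. In sta6 of that set it was at 1.37, 6.63 and 11.9 FPKM, above STA6-C2 at each time. Cre06.g294150 rested on 7, 4 and 2 reads in STA6-C2, against 39 to 74 in the other 6 libraries. The differences of these 5 genes lay between -1.04 and -0.76 (log2) on the log2(FPKM + 1) scale, which understates changes of low genes, and on the recovered reads the difference of Cre06.g294150 was -3.29 (adjusted p = 0.0356). On those reads Cre15.g647000 and Cre04.g223500 missed the threshold (adjusted p = 0.059 and 0.126).

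Among the rises, Cre06.g283600 was the largest at 1.70 ± 0.17 (log2, SE, adjusted p = 0.00671). It was at 45.5, 29.4 and 57.7 FPKM in STA6-C2, against 8.53, 14.6 and 16.3 FPKM in STA6-C4 and 9.67, 11.4 and 16.4 FPKM in STA6-C6. STA6-C2 was at 5.0, 2.26 and 3.53 times the mean of the others, without overlap. In sta6 the gene was at 7.25, 12.9 and 11.3 FPKM and in CC-4349 at 8.66, 11.0 and 11.8 FPKM, so STA6-C2 alone was above 20 FPKM. Without STA6-C2 at 48 h the adjusted p was 0.0725, with a difference of 1.67.

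The gene next to it in the RefSeq order, Cre06.g283550, was also higher in STA6-C2. It was at 65.6, 73.6 and 52.2 FPKM in STA6-C2, against 38.8, 44.9 and 23.9 FPKM in STA6-C4 and 42.2, 53.4 and 21.2 FPKM in STA6-C6. The difference was 0.81 ± 0.12 (adjusted p = 0.0268), and STA6-C2 was above both strains at each time although its 48 h value overlaps their 4 h values. It was called in 2 of the 9 fits that leave out 1 library, with an adjusted p of up to 0.124. These were the 1 pair of called genes that are next to each other in that order, among the 18 of 23 called genes that matched the reference. Of 26 tested genes next to a called gene, 2 were called, namely these. With these included, 3 (11.5%) differed by more than 0.5 (log2), against 2.0% of all genes tested. The third was Cre05.g248450. Each gene of the called pair was counted as the neighbour of the other, so the 11.5% rests mainly on that pair. How the authors' counting treats reads shared by neighbouring or similar genes is not stated.

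Cre13.g574850 was at 16.8, 18.5 and 25.2 FPKM in STA6-C2, against 6.01, 6.74 and 4.25 FPKM in STA6-C4 and 6.92, 6.15 and 5.23 FPKM in STA6-C6. STA6-C2 was highest at 48 h while the others were lowest then, and the ratio of STA6-C2 to their mean was 2.60, 2.88 and 5.32 at 0.5, 4 and 48 h. The difference was 1.61 ± 0.16 (log2, SE, adjusted p = 0.00371). In sta6 the gene was at 4.27 to 7.38 FPKM and in CC-4349 at 4.47 to 8.34 FPKM, both below every STA6-C2 library.

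Cre06.g301450 was at 31.9, 40.2 and 33.8 FPKM in STA6-C2, against 14, 18 and 19.8 FPKM in STA6-C4 and 15.2, 16.1 and 19.9 FPKM in STA6-C6. STA6-C2 was above both without overlap, with a difference of 1.01 ± 0.10 (adjusted p = 0.00181). In sta6 the gene was at 16.4, 16.4 and 19.6 FPKM, near the other rescued strains. In CC-4349 it was at 16.4, 21.0 and 34.4 FPKM, so at 48 h CC-4349 and STA6-C2 were at about the same level.

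Cre01.g015100 and Cre01.g063800 differed less. Cre01.g015100 was at 7.71, 15.8 and 11.7 FPKM in STA6-C2, against 4.45 to 7.83 FPKM in the other 6 libraries, a difference of 0.83 ± 0.11 (adjusted p = 0.0171). Its lowest STA6-C2 value lies inside the range of the others, though above both at 0.5 h. Cre01.g063800 was at 9.14, 10.6 and 10.8 FPKM in STA6-C2, against 5.86 to 7.92 FPKM in the others, a difference of 0.55 ± 0.09 (adjusted p = 0.0467), which is the largest adjusted p of the 23. It was called in 0 of the 9 limma fits that leave out 1 library, and its adjusted p on the recovered reads was 0.0673.

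The remaining rises, Cre16.g674133 and Cre08.g377650, averaged under 5 FPKM over the 9 libraries. Cre16.g674133 was at 6.14, 5.92 and 5.56 FPKM in STA6-C2, against 2.70, 1.64 and 0.465 FPKM in STA6-C4 and 3.40, 2.03 and 0.950 FPKM in STA6-C6. It was lower at each later time in the others and near constant in STA6-C2, with a difference of 1.36 ± 0.19 (adjusted p = 0.0401). Cre08.g377650 had 12, 22 and 6 reads in STA6-C2, against 1, 1 and 0 reads in STA6-C4 and 1, 2 and 1 reads in STA6-C6, and 0 reads in each library of sta6 of the same set. In the 8 samples of sta6 in the first set it ranged from 0.0617 to 0.854 FPKM. The difference of Cre08.g377650 was 1.59 ± 0.20 on the log2(FPKM + 1) scale (adjusted p = 0.0199) and 3.65 on the recovered reads (adjusted p = 0.0056).

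**Figure D3:**
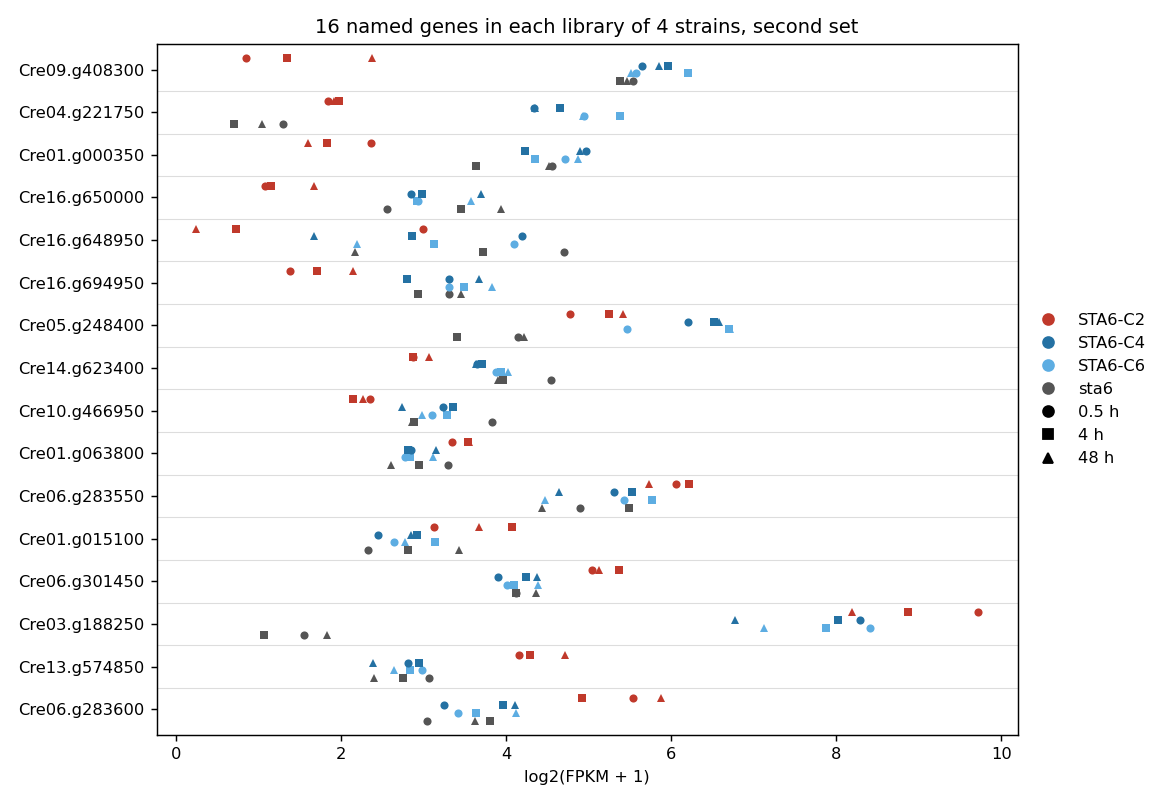
log2(FPKM + 1) of 16 genes in each library of STA6-C2, STA6-C4, STA6-C6 and sta6 of the second set, with 1 point per library, colour for the strain and shape for the time. The STA6-C2 points of Cre09.g408300 and Cre01.g000350 lie left of all others, those of Cre13.g574850 and Cre06.g283600 lie right of them, and for Cre04.g221750 and Cre05.g248400 sta6 lies on the side of STA6-C2.

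STA6 itself is lowest in sta6, intermediate in STA6-C4 and STA6-C6 and highest in STA6-C2. The other 22 called genes were set beside that order as a description, with no test, since both comparisons would share the STA6-C4 and STA6-C6 libraries. In 16 of the 22 the sta6 libraries were nearer to STA6-C4 and STA6-C6 than to STA6-C2 at all 3 times (72.7%), against 14.9% of all genes tested. The 22 were called for a gap between STA6-C2 and these strains, so the shares are not alike and nothing is read from their contrast. In 3 of the 22 (13.6%), Cre04.g221750, Cre05.g248400 and Cre04.g223500, sta6 was nearer to STA6-C2 at all 3 times, against 12.4% of all genes tested. The other 3 varied with time. In 1 of the 22 (4.55%), Cre06.g283550, sta6 lay beyond STA6-C4 and STA6-C6 on the side away from STA6-C2 at all 3 times, the order that STA6 has, against 3.82% of all genes tested. The gap was small at 4 h, 44.0 FPKM in sta6 against 44.9 in STA6-C4, and at 48 h, 20.6 FPKM against 21.2 in STA6-C6. CC-4349, which has the STA6 transcript, was also low for Cre06.g283550, at 28.3, 37.5 and 22.1 FPKM. None of the 14 falls had the mirror order, with sta6 above STA6-C4 and STA6-C6 at all 3 times. CC-4349 was nearer to STA6-C4 and STA6-C6 at all 3 times in 13 of the 22 (59.1%), against 21.0% of all genes tested. It was nearer to STA6-C2 at all 3 times in 5 of the 22 (22.7%), against 9.49% of all genes tested. Those 5 were Cre04.g221750, Cre16.g648950, Cre05.g248400, Cre03.g170000 and Cre14.g623400. The 22 were called for their gap, so nothing is read from these shares either.

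**Figure D4:**
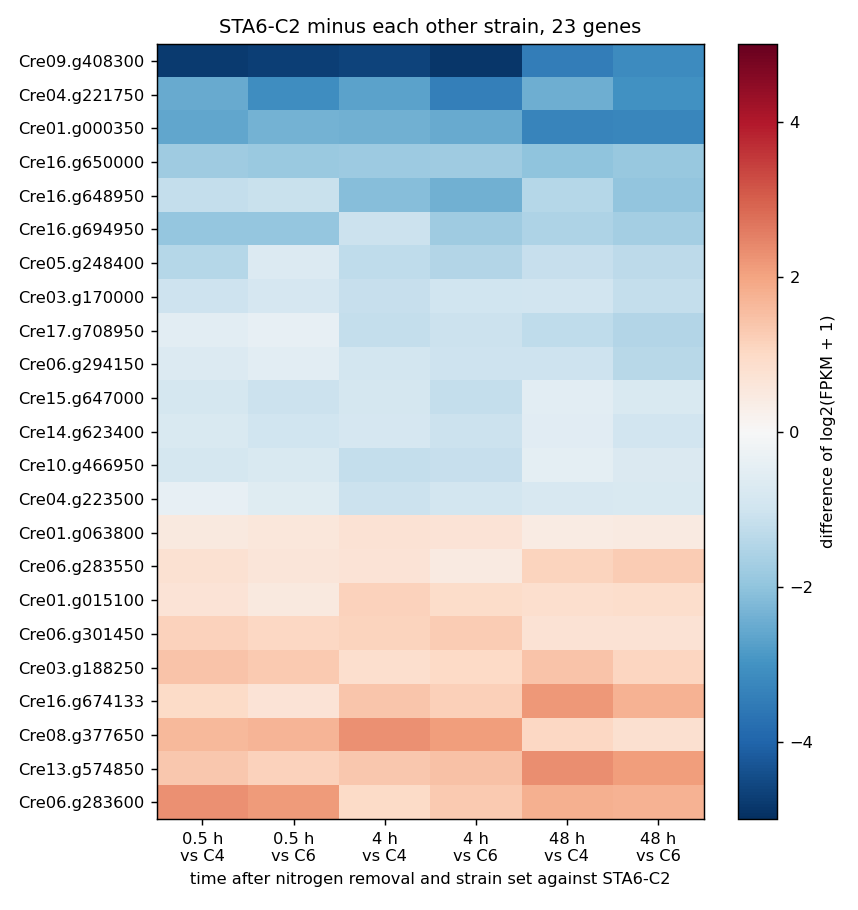
Difference of log2(FPKM + 1) between STA6-C2 and each other rescued strain at each time for the 23 called genes, with STA6-C4 and STA6-C6 in neighbouring columns, blue for lower and red for higher in STA6-C2. Every gene keeps 1 colour across its 6 cells, and Cre09.g408300 is the darkest in each column except against STA6-C6 at 48 h.

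At single times the spread came only from the difference between STA6-C4 and STA6-C6 over the 3 times. At 0.5 h 13 genes were called (0.0895%), 5 higher and 8 lower in STA6-C2, which was 2 higher and 6 lower after quantile normalization. At 4 h 10 were called (0.0688%), 5 in each direction, and at 48 h 12 (0.0826%), 7 higher and 5 lower. At an unadjusted p under 0.05 the counts were 754, 1003 and 295. These calls covered 22 genes, 10 of which were also among the 23. Cre09.g408300, Cre01.g000350 and Cre16.g650000 were called at all 3 times, 7 genes at 2 times and 12 at 1 time.

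Of the genes called only at single times, some were chosen for description after their values were seen. Cre02.g145451 was at 15.9, 25.6 and 10.6 FPKM in STA6-C2, against 1.51, 1.38 and 6.39 FPKM in STA6-C4 and 0.595, 1.39 and 6.97 FPKM in STA6-C6. Its difference was 3.08 ± 0.25 at 0.5 h (adjusted p = 0.00211) and 3.48 ± 0.25 at 4 h (adjusted p = 0.00124), and 0.59 at 48 h (adjusted p = 1.0). The other strains were at a higher level at 48 h and STA6-C2 at a lower one, so the strains were nearest then. Cre11.g470395 was at 1.09, 4.75 and 9.50 FPKM in STA6-C2 and at or below 0.381 FPKM in the other 6 libraries, with 6, 24 and 62 reads against 0 to 2. Its difference was 2.17 ± 0.20 at 4 h (adjusted p = 0.00527) and 3.21 ± 0.20 at 48 h (adjusted p = 0.000188). Over the 3 times together its difference was 2.12 ± 0.35 (adjusted p = 0.159).

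Cre79.g795900 was lower in STA6-C2 at 0.5 and 4 h, with 0.771, 1.64 and 0.192 FPKM in STA6-C2, 5.87, 10.9 and 0.337 FPKM in STA6-C4, and 8.36, 11.5 and 0.327 FPKM in STA6-C6. Its difference was -2.18 ± 0.22 at 0.5 h (adjusted p = 0.00686) and -2.21 ± 0.22 at 4 h (adjusted p = 0.0061). At 48 h the gene was below 0.4 FPKM in all 3 strains. Cre19.g753750 was lower at 48 h, at 3.13 FPKM in STA6-C2 against 15.6 FPKM in STA6-C4 and 20.6 FPKM in STA6-C6, a difference of -2.2 ± 0.23 (adjusted p = 0.01). Cre17.g723350 and Cre17.g723400, whose IDs follow each other, were lower at 0.5 h, at 8.83 and 9.82 FPKM in STA6-C2, against 44.0 and 56.5 FPKM in STA6-C4 and 28.3 and 36.6 FPKM in STA6-C6. Their differences were -1.89 ± 0.25 (adjusted p = 0.044) and -2.10 ± 0.25 (adjusted p = 0.0217), and at 48 h both were at 9.18 to 10.2 FPKM in STA6-C2 against 5.36 to 6.25 FPKM in the others.

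Few genes were called for a different response over time, in a contrast with 1 STA6-C2 library per time and 3 residual degrees of freedom. Large differences can be missed by it, so the low count does not show that the courses were alike. For 48 h against 0.5 h, Cre17.g723400 differed by 2.71 and Cre02.g145451 by -2.49 (log2), and neither was called. For 4 h against 0.5 h, 2 genes had a response that differed between STA6-C2 and the others (0.0138%), and for 48 h against 0.5 h 1 gene did (0.00688%). At an unadjusted p under 0.05 there were 440 and 377 genes. The called genes were Cre02.g087788, which rests on 3 to 36 reads in the libraries of STA6-C2 and 2 to 48 in those of the others, and Cre07.g344377, which had at most 2 reads in any of the 9 libraries and was named after its values were seen. The STA6 response itself differed by -0.46 ± 0.25 at 4 h and by -0.12 ± 0.25 at 48 h (log2, SE). No test is read from these values, since STA6-C2 was picked for its STA6 level.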

How the data were processed

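The deposited table holds values read as FPKM, the authors' read numbers divided by gene length and library size, with no header to tell FPKM from RPKM. Per the submitters' processing notes Bowtie was used, and no source used here gives the build, annotation or counter. Whole reads were recovered from the second set: in 16315 of 16332 genes with at least 5 values (99.9%) the values were whole multiples of 1 read, with 99.98% of values within 0.02 reads.

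Genes that reached 1 FPKM in 3 or more of the 9 libraries were tested as log2(FPKM + 1) in limma 3.58.1 (R 4.3.3), its trend and robust options on, with time as a block (5 residual degrees of freedom) and Benjamini-Hochberg adjustment over all genes tested at a threshold of 0.05. Differences at single times and time responses used a term for each class at each time, which leaves 3 residual degrees of freedom. Differences are STA6-C2 minus the mean of STA6-C4 and STA6-C6. Named genes were the 10 largest rises and falls among called genes that average at least 5 FPKM and keep 1 direction in 6 of 6 pairs, fewer where fewer qualified. Genes called below 5 FPKM, and those called at single times or not called, were added after their values were seen. The comparison and the lists were chosen with earlier results of these data known, and gene lists that need gene names were not used, since no source pairs names with the IDs. Gene order came from RefSeq (Chlamydomonas_reinhardtii_v5.5), where 12666 of 17301 IDs (73.2%) matched. Alternatives were other scalings, pseudocounts, filters, blocks and subsets of libraries. Added after seeing the data was limma's voom on the recovered reads, a weighted linear fit to log2 counts, which called 23 genes. The fits were checked on simulated data. Python 3.11.15, numpy 2.4.6 and pandas 2.3.3 were used for the other steps.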

Additional observations from a re-analysis of the deposited data

Results flagged for a closer look

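The results below were picked out because the response over time differed between STA6-C2 and the other rescued strains in a test of that difference. The response of Cre02.g087788 at 4 h against 0.5 h differed by -2.35 ± 0.25 (STA6-C2 minus the others, log2, SE, adjusted p = 0.0488 in limma). It was at 28.6 and 23.5 FPKM in STA6-C2 at 0.5 and 4 h, against 8.65 and 37.7 FPKM in STA6-C4 and 8.95 and 42.9 FPKM in STA6-C6. The reads behind these values were 4 and 3 in STA6-C2, 2 and 5 in STA6-C4, and 3 and 6 in STA6-C6. With so few reads a change cannot be told from counting error, and the response was not called with a pseudocount of 5. At 48 h the strains were close, with 218 FPKM in STA6-C2, 212 FPKM in STA6-C4 and 168 FPKM in STA6-C6.

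Cre07.g344377 was picked out at both later times, with a response that differed by 3.94 at 4 h (log2, adjusted p = 0.00904) and by 7.66 at 48 h (adjusted p = 2.7e-05). It had 0, 0 and 1 reads in STA6-C2 at 0.5, 4 and 48 h, 2, 0 and 0 reads in STA6-C4, and 2, 0 and 0 reads in STA6-C6. The difference is 1 read against 2, in a gene for which 1 read is worth several FPKM, and no change can be read from it at this depth.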

How the results depend on the processing

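Of the 23 genes that differed between STA6-C2 and the other rescued strains, none changed direction under any alternative. All 23 had the same direction in 6 of 6 pairs, so fits to the same libraries or a part of them could hardly reverse it. The constant direction therefore adds no support. The count was 75 with strain as a factor of 3 levels (all 23 among them), 37 with 1 value per strain, 4 with no time block, 6 without the 4 h libraries, 10 without the 48 h libraries, 96 without STA6-C4 and 57 without STA6-C6. Leaving out 1 library gave 11 to 23 genes. The count stayed within 1.5 times of 23 under the other alternatives, among them 24 with quantile normalization, 20 with a pseudocount of 0.1, 19 with a pseudocount of 5, 28 with strain as a random block and 23 on the recovered reads, 18 of them among the 23. At 0.5 h quantile normalization gave 8 genes against 13. The response at 4 h, 2 genes, became 1 with quantile normalization, 1 with equal medians, 4 with no filter and 0 with a pseudocount of 5. The response at 48 h, 1 gene, became 5 with no filter, 2 with a pseudocount of 0.1 and 2 with a pseudocount of 5. The cause was not tested. No paired analysis was possible because the labels give no replicate numbers; time was the block in the fits reported. Depth limits genes below 5 FPKM, some of which rest on under 20 reads in STA6-C2.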

Other observations

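Some of the largest differences between STA6-C2 and the mean of the other rescued strains were not called, and these were chosen by size after their values were seen. Of 12 genes that differed by at least 2 (log2), 3 were called and 9 were not. Those given here are examples in which STA6-C4 or STA6-C6 alone stood apart. Cre08.g368650 was at 0.279, 0.203 and 0.0786 FPKM in STA6-C2 at 0.5, 4 and 48 h, at 55.6, 73.2 and 3.45 FPKM in STA6-C4, and at 0.620, 1.02 and 0 FPKM in STA6-C6, so STA6-C4 was the high strain. Cre16.g656450 was at 0.782, 0.214 and 0 FPKM in STA6-C2, at or below 0.412 FPKM in STA6-C4, and at 23.7, 21.5 and 46.0 FPKM in STA6-C6. Cre08.g381750 was likewise high in STA6-C6 alone, with 0.272, 0.297 and 0.575 FPKM in STA6-C2, 0.466, 0.716 and 0.672 FPKM in STA6-C4, and 21.8, 19.96 and 34.2 FPKM in STA6-C6. These 3 genes were at or below 2.27 FPKM in sta6 and CC-4349 of the same set.

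Cre04.g223300, also among the 9, was highest at 48 h in all 3 rescued strains. It was at 4.11, 6.95 and 34.2 FPKM in STA6-C2, at 30.3, 37.7 and 146 FPKM in STA6-C4, and at 5.19, 62.9 and 219 FPKM in STA6-C6, lower in STA6-C2 in 6 of 6 pairs but past no threshold (-2.15 ± 0.56, log2, SE, adjusted p = 0.493 in limma). In sta6 it was at 3.38, 0.509 and 0.789 FPKM and in CC-4349 at 5.67, 2.48 and 2.61 FPKM. Its 48 h level in each rescued strain was above every library of sta6 and CC-4349 of that set. Cre15.g637600 was called at 48 h only (1.85 ± 0.24, log2, SE). It was at 0.368, 1.07 and 5.87 FPKM in STA6-C2 and at or below 1.25 FPKM in STA6-C4 and STA6-C6. In sta6 it was at 23.5, 178 and 301 FPKM in the same set and at most 1.13 FPKM over 8 samples of the first set. CC-4349 went the other way, at or below 0.0401 FPKM in the same set and at 1.8 to 16.5 FPKM in the first set.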
